A study of Rattus norvegicus with 12 samples.

Results

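miR-21 is a microRNA (miRNA), a short RNA that pairs with messenger RNAs and lowers their use. Its hairpin precursor yields 2 mature arms, miR-21-5p and miR-21-3p. Both were chosen by name, as rno-miR-21-5p and rno-miR-21-3p, and they are 2 of the 583 miRNAs listed in the deposited heart and exosome tables. The authors listed 574 miRNAs for heart and 367 for exosomes, and 358 stood in both.

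Small RNA was sequenced from 6 samples labelled heart and 6 labelled serum, all from SD rats, an outbred laboratory strain. The study concerns ischemia and reperfusion, with a coronary artery closed for 30 min and the heart then perfused for 1 week. Each table compared a group headed M with a group headed CK, 3 libraries in each. The labels do not say what M and CK stand for, whether either or both had the operation, how old the rats were, or which sample belonged to which group. No label names exosomes, which are small vesicles released by cells; the exosome table was taken to hold the serum samples because heart has a table of its own. The deposited table gave only group means, and the reads of every library were recovered from them by arithmetic, so a library's number is its place in the order of size factors within its group and does not point to a sample. Nothing in the labels says that samples came from separate animals, so p-values measure only the spread between these libraries. Heart M libraries held 2227135 to 6233617 miRNA reads, heart CK libraries 4009622 to 7114569, exosome M libraries 1882279 to 1958898 and exosome CK libraries 1567951 to 5451810.

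As background, an enzyme cuts the miR-21 hairpin into a duplex, one strand of which is loaded into the silencing complex while the other is mostly degraded. miR-21-5p is the arm usually kept. It is abundant in many cells, represses Pdcd4 and Spry1, and is best known in the heart for its rise in fibroblasts of injured or overloaded tissue. The 2 mature arms and the precursor, from RefSeq sequences of the build GRCr8, are printed to show which strand each readout counted. Capitals mark the seed (bases 2 to 8, which lead target pairing) in the arms, and the 2 arms in the hairpin.
miR-21-5p: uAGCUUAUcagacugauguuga
miR-21-3p: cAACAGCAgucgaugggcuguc
Mir21 hairpin: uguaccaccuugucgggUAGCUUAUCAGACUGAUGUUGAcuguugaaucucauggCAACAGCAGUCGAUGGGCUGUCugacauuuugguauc

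The 2 arms are 22 bases each, at bases 18 to 39 and 56 to 77 of the 92-base hairpin. G and C made up 36.4% of miR-21-5p and 59.1% of miR-21-3p. Neither seed was shared with any other of the 724 mature rat entries used, so no seed family could be described beside them. These entries matched 520 of 574 heart and 327 of 367 exosome miRNAs, so a listed miRNA without a sequence could share a seed. The closest other entry differed from miR-21-5p by 7 edits (miR-101a-5p) and from miR-21-3p by 8 (let-7f-2-3p and miR-497-5p). In the order of genes in GRCr8, Mir21 lies between Tubd1, which encodes a tubulin, and Vmp1, which encodes a protein of autophagy.

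One heart library stood apart from the rest. Summed over 8 muscle miRNAs, M library 2 held a normalized level of 196545 reads, against 727885 and 1052126 in the other M libraries and 411674 to 967157 in the CK libraries. Summed over the mesenchymal miRNAs miR-199a-5p, miR-199a-3p and miR-214-3p, which connective tissue cells express, it held 102244, against 29236 and 21764 in the other M libraries and 15026 to 15390 in CK. All 8 muscle miRNAs were detected in the heart table. In the exosome table miR-208a-3p and miR-208b-3p, miRNAs of myosin genes, were not listed. Several values in heart that M library 2 touches are given with and without it. The second test of M against CK within heart, limma, and most folds of other single miRNAs are given with it only.

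In the heart, miR-21-5p was among the most abundant miRNAs of M, and its level there exceeded that of CK in every library. The 3 M libraries held 130683, 513082 and 211999 reads of it, and the 3 CK libraries 76784, 78901 and 55348. Divided by the size factors, the normalized levels were 277425, 502256 and 187022 in M, against 80623, 57088 and 35688 in CK. The groups did not overlap, and the lowest M library was 2.32 times the highest CK library. Among heart miRNAs with a mean of at least 10, 16.0% (56 of 350) had every M library above every CK library. In bulk tissue, more cells of a type and more RNA per cell cannot be told apart. The M mean was 322234 ± 162324 and the CK mean 57800 ± 22476 (SD, n = 3 libraries each). The spread within M was wide, with a coefficient of variation of 50.4% in M and 38.9% in CK.

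**Figure D1:**
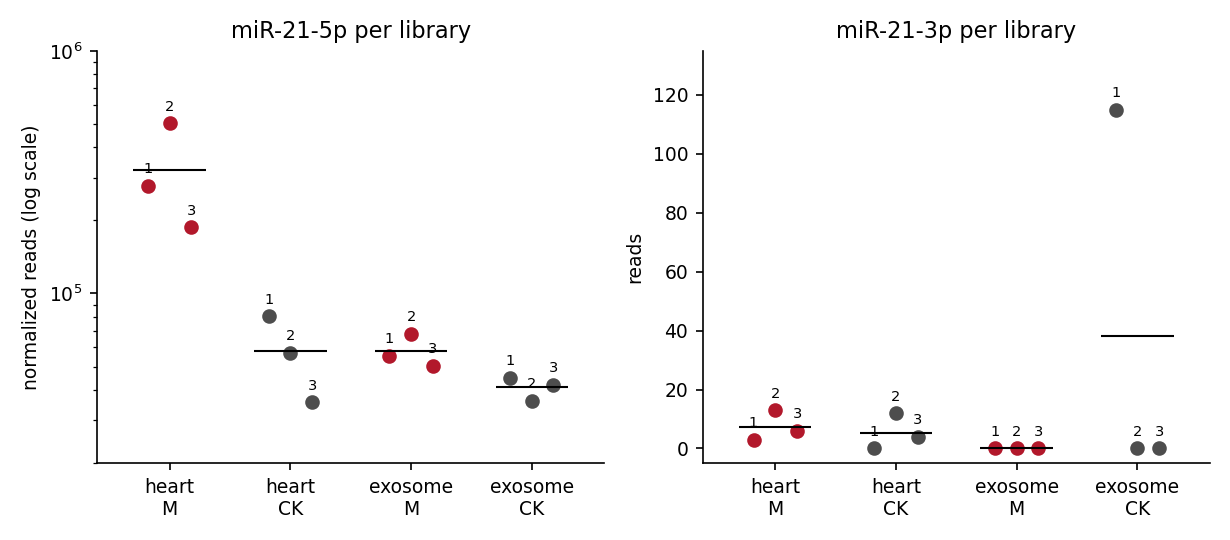
Left, normalized reads of miR-21-5p (log axis) in each library of heart M, heart CK, exosome M and exosome CK. Right, reads of miR-21-3p in the same libraries. Points are single libraries, with the library number above each, and lines are group means. In heart every M point of miR-21-5p lies above every CK point, and in the exosome table a single CK library holds all 115 reads of miR-21-3p.

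The test in the authors' deposited table did not pass its threshold for heart miR-21-5p. The authors' deposited table gave the M mean as 5.58 times the CK mean (log2 2.48), with p = 0.00132 and an adjusted p of 0.151. This was the 5th smallest p of the 574 miRNAs. At an adjusted p under 0.05 the authors' deposited table called 4 of 574 miRNAs (0.697%). The scatter of the row set the test, since its dispersion was 0.372 against 0.105 for the trend at that level, and the larger is used. limma on log2(level + 1) of the recovered reads gave a log2 difference of 2.44 with an SE of 0.42 and an adjusted p of 0.0357, with 6 of 574 miRNAs called (1.05%). Over the 350 miRNAs with a mean of at least 10, limma gave an adjusted p of 0.0316, with 5 called (1.43%). The 2 tests therefore fell on opposite sides of 0.05. The exact permutation test over the 6 libraries gave a two-sided p of 0.1, the smallest that 20 splits allow.

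Leaving out single libraries moved the adjusted p in both directions while the difference stayed large. Here the authors' test was recomputed with the size factors and the dispersion trend kept. Without M library 2, the highest in miR-21-5p, the log2 fold was 2.01 and the adjusted p 0.00997 in the negative binomial test, and miR-21-5p was 1 of the 2 miRNAs called. Without M library 3, the lowest of M, the log2 fold was 2.75 and the adjusted p 0.00733 in the same test. Without M library 1 the log2 fold was 2.58 and the adjusted p 0.578, and without a CK library the log2 fold was 2.23 to 2.80 and the adjusted p 0.387 to 0.653. The M mean thus lay above the CK mean in each of these 6 fits, and the call was made in 2 of them. The fit without M library 2 called 0.356% of the miRNAs it tested and the fit without M library 3 called 0.883%. Those without CK library 1 and CK library 3 called 0.178% and 0.176%, and the other 2 called 0.0%.

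**Figure D2:**
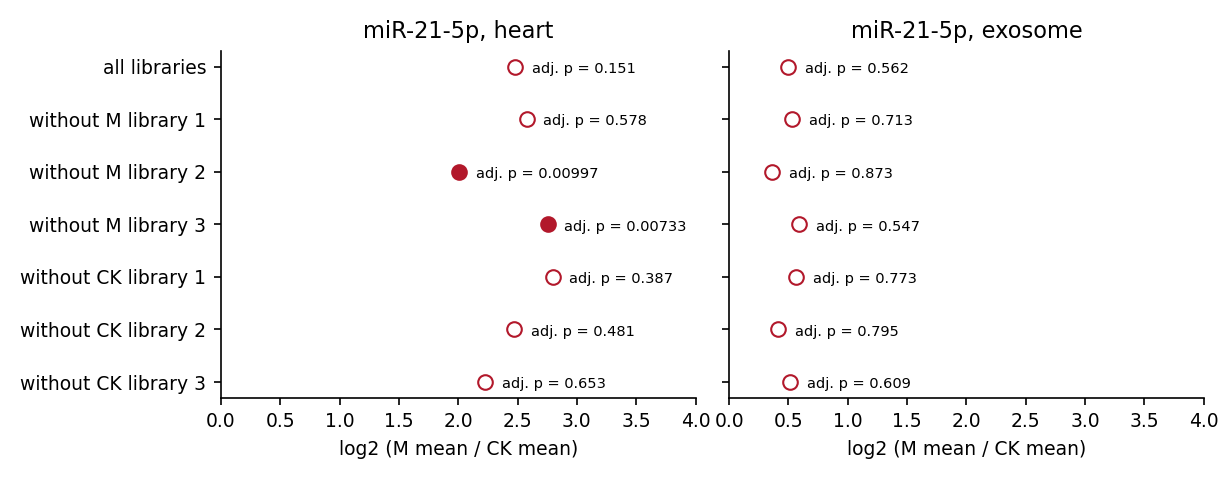
log2 of the M mean over the CK mean of miR-21-5p with all libraries and without each one, in heart (left) and in the exosome table (right). Each point is 1 fit with its adjusted p from the negative binomial test, and filled points have an adjusted p below 0.05. The heart values run between 2.01 and 2.80 and 2 of them are filled, while the exosome values run between 0.37 and 0.59 and none is.

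In the heart profile miR-21-5p took 6.74% of the M column sum and 1.36% of the CK column sum, and ranked 4th in M and 18th in CK. By library it took 5.87%, 12.2% and 3.40% of the miRNA reads in M, and 1.91%, 1.43% and 0.778% in CK. The shares did not overlap either. Its rank was 4, 2 and 9 in the M libraries, and 14, 19 and 25 in the CK libraries. Its difference of means, 264435 normalized reads, was the largest of all 574 heart miRNAs and equal to 50.8% of the net difference of the column sums (520651). Both rested on M library 2. Without it the difference of miR-21-5p was 174424, second to miR-143-3p at 193669, and equal to 20.5% of the net difference of the column sums (851544). Its share of the M column sum was then 4.54% and its rank in M 9th. As a ratio of shares, its log2 fold was 2.31.

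Few heart miRNAs had as large a ratio of M to CK. Among 116 heart miRNAs with a larger group mean of at least 1000, miR-21-5p had the largest ratio of M to CK, and miR-199a-5p the next, 5.30. Among 324 miRNAs with both means of at least 10, the median log2 fold was -0.01 and 4 reached the value of miR-21-5p, itself included. Without M library 2 miR-21-5p still had the largest ratio, 4.02, among 113 miRNAs at that mean, followed by miR-184 at 3.56, and 3 of 324 reached its log2 fold. The thresholds of 1000 and 10 were chosen for description and the ratios share the same libraries.

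**Figure D3:**
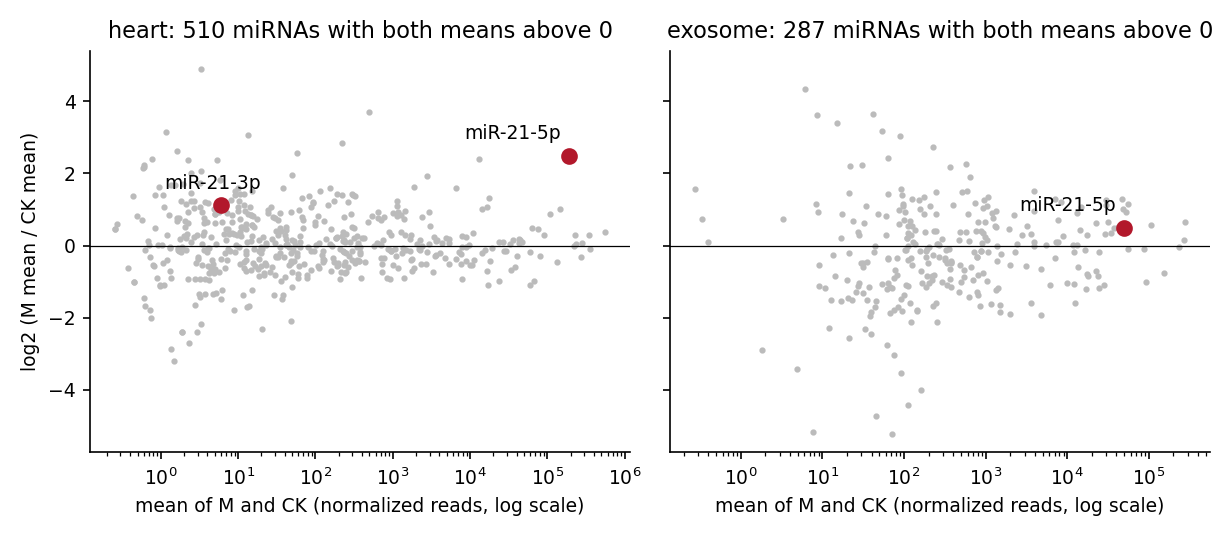
log2 of the M mean over the CK mean against the mean of both groups (log axis, normalized reads) for every miRNA with both means above 0, in heart (left, 510 miRNAs) and in the exosome table (right, 287). Red points are the arms of miR-21. Heart miR-21-5p lies at 2.48, far right and high, exosome miR-21-5p lies at 0.50 within the scatter, and miR-21-3p is not drawn for the exosome table because its M mean was 0.

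The miRNAs ranked beside miR-21-5p in heart moved less. In M, miR-1b, a muscle miRNA close in sequence to miR-1-3p, ranked directly above with a mean level of 344531 in M and 365838 in CK. It varied more than miR-21-5p within M, at 394765, 83197 and 555630, with the low value in library 2. miR-99a-5p, a member of the miR-99 and miR-100 family, ranked directly below with 286585 in M and 275462 in CK. In CK, miR-125b-5p, abundant in many tissues, stood above with 55651 in M and 63054 in CK. let-7c-5p, of the let-7 family, stood below with 74144 in M and 52602 in CK. How reads matching both miR-1b and miR-1-3p were shared out is not stated, so the value of miR-1b is uncertain.

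**Figure D4:**
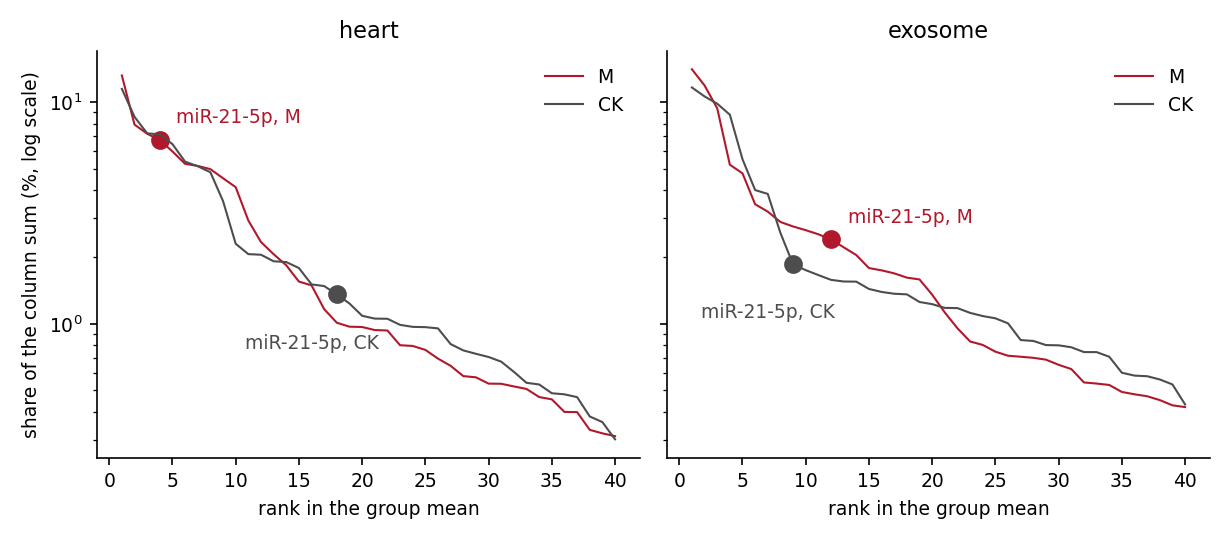
Share of the column sum (%, log axis) of the 40 most abundant miRNAs of each group by rank, in heart (left) and in the exosome table (right), with M in red and CK in grey. Circles mark miR-21-5p, at rank 4 in M and 18 in CK in heart, and at rank 12 in M and 9 in CK in the exosome table.

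Within heart M, the order of the 3 libraries in summed mesenchymal markers followed that in miR-21-5p, and summed muscle markers ran in reverse. This order was not tested, and M library 2 had been set apart by these same sums. The muscle sums were mostly miR-1b and miR-1-3p. By contrast, miR-206-3p rose with miR-21-5p, at 282, 760 and 119 in M libraries 1, 2 and 3. M library 2, highest in miR-21-5p, was lowest in summed muscle miRNAs and highest in summed mesenchymal miRNAs. M library 3, lowest of M in miR-21-5p, was the highest in muscle miRNAs and the lowest of M in mesenchymal ones. Within CK this was not seen for mesenchymal miRNAs, which summed to 15198, 15390 and 15026 in libraries whose miR-21-5p levels were 80623, 57088 and 35688. Summed muscle miRNAs in the same CK libraries were 671920, 411674 and 967157, with the lowest sum at the middle level of miR-21-5p. All 3 mesenchymal miRNAs were higher in the M mean than in the CK mean, and their median log2 fold was 1.92, but none passed in the authors' deposited table, with adjusted p of 0.796 to 0.884. Their median log2 fold was 0.78 without M library 2. 6 of 8 muscle miRNAs were lower in the M mean, with a median log2 fold of -0.29 and none at an adjusted p under 0.05. That median was -0.01 without M library 2, with 4 of 8 lower in M. Summed leukocyte miRNAs ran at 5740 to 8498 in M and 9559 to 13781 in CK, mostly miR-150-5p of lymphocytes, which had the lower mean in M, while the other 4 had the higher. These sums did not overlap between the groups. The share of heart miRNAs with every M library below every CK library is not given here, so how common such a separation was is not known. Summed endothelial miRNAs ran at 217220 to 470707 in M, lowest in M library 2 as the muscle sum was, and 272768 to 334265 in CK. Summed smooth muscle miRNAs ran at 554836 to 777342 in M and 507571 to 583784 in CK. Summed red cell miRNAs ran at 26291 to 53216 in M and 55295 to 113658 in CK, and liver miR-122-5p ran at 16.6 to 197 in M and 10.1 to 20.6 in CK. The same limit applies to the red cell sums. They were mostly miR-486, with a mean of 37987 in M and 81592 in CK. By contrast, miR-451-5p had 2088.5 in M and 2037.8 in CK, and miR-144-3p had 41.5 in M and 77.7 in CK. The part of these cells in the miR-21-5p difference was not tested.

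miR-21-3p, the passenger arm, was near the detection limit in heart. The M libraries held 3, 13 and 6 reads of it, and the CK libraries 0, 12 and 4. Normalized levels were 6.37, 12.7 and 5.29 in M, against 0, 8.68 and 2.58 in CK, and the groups overlapped. The authors' deposited table gave a log2 fold of 1.11 with p = 0.322 and an adjusted p of 1. limma gave a log2 difference of 1.40 with an SE of 0.81 and an adjusted p of 0.407. Both values rest on 38 reads over the 6 libraries. Without M library 2 the log2 fold was 0.64 and the adjusted p 1 in the negative binomial test. miR-21-3p ranked 362nd in M and 408th in CK.

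The 5p arm made up nearly all reads of the hairpin in heart. Per 100000 reads of miR-21-5p there were 2.30, 2.53 and 2.83 reads of miR-21-3p in the M libraries, and 0, 15.2 and 7.23 in the CK libraries. The M values were close to each other and the CK values lay on both sides of them, but all rest on few reads. Exact 95% intervals were 0.473 to 6.71, 1.35 to 4.33 and 1.04 to 6.16 in the M libraries. In the CK libraries they were 0 to 4.80, 7.86 to 26.6 and 1.97 to 18.5. Over summed reads the ratio was 2.57 in M (exact 95% interval 1.61 to 3.89) and 7.58 in CK (4.33 to 12.3). All these intervals cover counting error only. From the group means it was 2.52 in M and 6.49 in CK. Without CK library 2 the CK ratio from means was 2.22, so the order of the groups turned with that library.

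miR-21 lay near the low end of all hairpins in this ratio. Among hairpins with both arms listed and the larger arm at a mean of at least 100, a limit chosen after the data were seen, it was the 3rd lowest of 121 in heart M and the 7th lowest of 116 in heart CK. In M it stood between miR-26a, at 0.928, and miR-99a, at 3.32. In CK it stood between let-7g, at 4.25, and miR-100, at 13.7. Without M library 2 it was the 6th lowest of 117 in M, at 2.51. The order counts hairpins whose 3p arm is the larger one too. By the smaller arm per 100000 of the larger, miR-21 was the 4th lowest of 121 in M and the 11th lowest of 116 in CK, where the medians over hairpins were 2016 in M and 1925 in CK. Ligation of adapters in small RNA libraries differs between sequences, so these are ratios of reads.

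**Figure D5:**
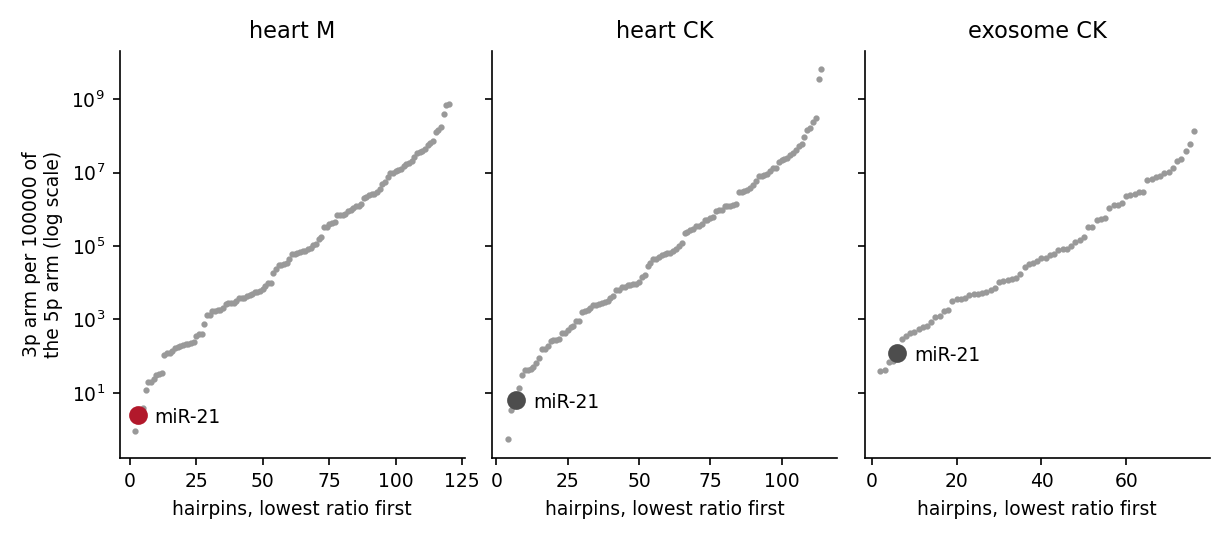
Reads of the 3p arm per 100000 of the 5p arm (log axis) for hairpins with both arms listed, in order of the ratio, from group means of heart M, heart CK and exosome CK. Each grey point is a hairpin, and the large point is miR-21, at 2.52, 6.49 and 122. Hairpins in which either arm had no read are not drawn, and exosome M is left out because miR-21-3p had no read there.

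In the exosome table miR-21-5p was abundant in both groups, with an M mean 1.41 times the CK mean. The M libraries held 42576, 55124 and 40894 reads of it, and the CK libraries 34416, 48309 and 101383. Normalized levels were 55474, 68212 and 50395 in M, against 44958, 36133 and 42146 in CK. The groups did not overlap, by a factor of 1.12 between the lowest M and the highest CK library. Of exosome miRNAs with a mean of at least 10, 10% (31 of 309) had every M library above every CK library. The M mean was 58027 ± 9179 and the CK mean 41079 ± 4508 (SD, n = 3 libraries each).

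No test placed the exosome difference past its threshold. The authors' deposited table gave the M mean as 1.41 times the CK mean (log2 0.50), with p = 0.113 and an adjusted p of 0.562. At an adjusted p under 0.05 the authors' deposited table called 14 of 367 miRNAs (3.81%). The dispersion of the row, 0.0213, lay below the trend of 0.0600, which was therefore used. limma gave a log2 difference of 0.49 with an SE of 0.22 and an adjusted p of 0.256, with 24 of 367 called (6.54%). Over the 309 miRNAs with a mean of at least 10 the adjusted p was 0.216 in limma, with 25 called (8.09%). The exact permutation test over the 6 libraries gave a two-sided p of 0.1, the smallest it allows. Without each library in turn the log2 fold was 0.37 to 0.59 and the adjusted p 0.547 to 0.873 in the negative binomial test, which called 2.2%, 3.32% and 1.96% of miRNAs without M library 1, 2 and 3 and 0.282%, 3.42% and 1.14% without CK library 1, 2 and 3. The scaling mattered at this size, since the median log2 fold of exosome miRNAs with both means of at least 10 was -0.14. With that median set to 0 the log2 fold of miR-21-5p was 0.64, and as a ratio of shares it was 0.37.

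By share of reads the exosome groups overlapped. miR-21-5p took 2.21%, 2.81% and 2.17% of the reads in the M libraries, and 2.19%, 1.55% and 1.86% in the CK libraries, so CK library 1 stood above M library 3. It took 2.40% of the M column sum and 1.85% of the CK column sum. Its rank was lower in M, 12th, than in CK, 9th. In M it stood between miR-143-3p, a smooth muscle miRNA at 61235, and miR-423-5p at 53499. In CK it stood between miR-423-5p at 56909 and miR-125a-5p at 38668.

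In order of share, miR-21-5p took 6.74% in heart M, 2.40% in exosome M, 1.85% in exosome CK and 1.36% in heart CK. The tables were normalized separately, so no level was tested between them. The libraries of heart M lay above all others, while those of exosome M overlapped with exosome CK and those of exosome CK with heart CK. In the exosome table the summed marker levels ran the other way for mesenchymal miRNAs, at 2397 to 3334 in M and 6848 to 12750 in CK, and miR-199a-3p was lower in M. Summed smooth muscle miRNAs ran at 43374 to 72789 in M and 100177 to 148442 in CK. Muscle miRNAs ran at 4074 to 20650 in M and 9234 to 11670 in CK, leukocyte ones at 53789 to 75179 in M and 61899 to 67531 in CK, and endothelial ones at 2302 to 3267 in M and 1979 to 4191 in CK. Red cell miRNAs ran at 290093 to 311709 in M and 244768 to 286503 in CK, and liver miR-122-5p at 5380 to 33934 in M and 22153 to 38585 in CK. Their part in the miR-21-5p values was not tested.

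miR-21-3p was found in a single exosome library. The M libraries held 0, 0 and 0 reads among 5765128 miRNA reads, and the CK libraries 115, 0 and 0. CK library 1 thus carried all reads, at a normalized level of 150. Set against a floor of 3 reads over the M group, M was at least 38.4-fold lower than the CK mean of 50.1. Without CK library 1 both groups were at 0 and no fold could be given. The authors' deposited table gave p = 0.142 and an adjusted p of 0.659. Of 367 exosome miRNAs, 64 had reads in 1 library only, with a median of 56.5 reads, and 13 of them in CK library 1. In heart, 45 of 574 miRNAs had reads in 1 library only, with a median of 1 read.

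Per 100000 reads of miR-21-5p, CK library 1 held 334 reads of miR-21-3p, and every other exosome library held 0. The ratio from group means was 0 in M and 122 in CK. A count of 0 in M allowed up to 2.16 per 100000. In CK miR-21 was the 6th lowest of 80 hairpins, between miR-16 at 72.4 and miR-146b at 287, and in M it was 1 of 7 of 79 hairpins with the 3p arm at 0.

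The M against CK difference of miR-21-5p was larger in heart than in the exosome table when tested directly. limma over the 358 miRNAs of both tables gave a difference of log2 folds, heart minus exosome, of 1.94 with an SE of 0.50 and an adjusted p of 0.0464. This was the 16th of 17 miRNAs past the threshold (4.75%). The fit pools the scatter of heart and serum libraries, and was added after the data were seen. It takes the 12 libraries as independent, though the labels do not say whether heart and serum samples came from the same rats. Leaving out 1 of the 12 libraries at a time gave 1.56 to 2.28, and in 10 of the 12 fits the adjusted p rose above 0.05 (0.0180 to 0.114 over all 12). Without heart M library 2 it was 1.56 with an adjusted p of 0.0654 in limma. For miR-21-3p the difference of log2 folds was 3.81 with an adjusted p of 0.442 in limma.

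Some other miRNAs lay near miR-21-5p in their pattern over the 4 group means. The measure was the distance between log2 shares, each centred on its own mean, over 236 miRNAs with all means of at least 10, whose median distance was 2.85. The nearest 5 were miR-31a-5p (0.888), miR-379-5p (1.01), miR-146b-5p (1.05), miR-411-5p (1.07) and let-7i-5p (1.16). The heart means of miR-31a-5p were 926 in M and 70.8 in CK, and its highest library was M library 2, at 2009. miR-146b-5p, induced in inflammation, had 9886, 12318 and 7304 in the M libraries of heart, and 3531, 3279 and 2923 in the CK libraries, with no overlap. It rose in heart M, with an adjusted p of 0.0220 in the authors' deposited table, but not past the threshold without M library 2 (adjusted p 0.514, negative binomial test). let-7i-5p, of the let-7 family, had 139853 in M and 76061 in CK of heart. In heart miR-379-5p had 436 in M and 163 in CK, and miR-411-5p 248 in M and 105 in CK, both of the imprinted Dlk1-Dio3 cluster. In the exosome table these 2 had the lower mean in M (log2 -0.34 and -0.35), unlike miR-21-5p. There miR-31a-5p, miR-146b-5p and let-7i-5p had the higher mean in M (log2 0.71, 0.33 and 0.65). The distance used 4 points, so it only orders the miRNAs. With M library 2 left out, the nearest 5 were miR-31a-5p (0.599), miR-146b-5p (0.826), let-7i-5p (0.964), miR-147 (0.969) and miR-379-5p (0.986).

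A list of 20 miRNAs linked to injury and fibrosis, chosen with earlier results of these data known, gives the setting of miR-21-5p. Its differences from all miRNAs may thus reflect that choice and are given as description only. In heart all 20 were measured. 16 had the higher mean in M and 4 in CK, against 51.4% of all 574 with the higher mean in M. The median log2 fold of the list was 1.08 against 0.03 over all miRNAs. 5 of the 20 had p under 0.05 in the authors' deposited table, against 7.67% of all 574. They were miR-146b-5p (log2 1.60), miR-155-5p (log2 1.22), miR-34c-5p (log2 1.40) and miR-31a-5p (log2 3.71), all higher in M, and the collagen-linked miR-29b-3p (log2 -0.92). Among these miR-146b-5p alone passed the adjusted threshold. Without M library 2 the median log2 fold of the list was 0.57, and 18 of 20 had the higher mean in M, against 263 of all 562. In the negative binomial test 2 of the 20 then had p under 0.05 (3.74% of all 562 tested) and none passed the adjusted threshold. The adjusted p of miR-146b-5p was 0.514 in that test. Among exosome miRNAs 16 of the 20 were measured. 3 had the higher mean in M and 13 in CK, against 40.9% of all 367 with the higher mean in M. The median log2 fold of the list was -0.89 against -0.15 over all miRNAs. 6 had p under 0.05 in the authors' deposited table, against 13.9% of all 367, all lower in M (miR-29b-3p, miR-146a-5p, miR-199a-3p, miR-214-3p, miR-221-3p and miR-24-3p). Of these miR-199a-3p (log2 -1.93, adjusted p 0.000243) passed the adjusted threshold, and so fell in exosome M.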

How the data were processed

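Total RNA of heart and serum samples was made into small RNA libraries with the NEBNext kit, per the labels' protocols. The submitters' processing notes name DESeq 1.30.0, Bowtie2 2.2.6 and the build mRatBN7.2 without saying what each did. What was trimmed or filtered, the annotation and the handling of reads matching several miRNAs are not stated. The deposited values are a signal, the authors' mean of reads divided by size factors over each group, per the file headers. The deposited fold is a ratio, M mean over CK mean, and the authors give its log2 beside it. Each deposited p-value comes with a Benjamini-Hochberg adjusted one, which was recomputed over the whole table and differed by at most 6.45e-15. No file names the libraries.

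Each deposited mean, printed to 15 digits, is a sum of whole reads times 1 step per library. Reads were searched within a relative tolerance of 6e-15, which solved 501 of 574 heart and 307 of 367 exosome miRNAs from the means alone. The other 73 and 60, which include miR-21-5p in both tables, were solved by also requiring that the deposited p be reached by a negative binomial exact test with the larger of the miRNA's own and the trend dispersion (relative tolerance 1e-10). All miRNAs were solved to 1 set of reads, and the largest relative difference of a recomputed p was 3.82e-12 in heart and 4.86e-12 in the exosome table. This use of the p was chosen after the data were seen, and so the recomputed p of those 73 and 60 miRNAs is not an independent check. Tested on simulated data, the search solved 20 of 20 miRNAs correctly in each table, with the steps known. Levels are reads divided by size factors.

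The main test is the authors' own. Alternatives were limma 3.58.1 in R 4.3.3 with a mean-dependent prior on log2(level + 1) over all miRNAs and over those with a mean of at least 10, the negative binomial test without each library, other scalings and pseudocounts, and other rows for the adjustment. Exact permutation tests and intervals used scipy 1.17.1. Named miRNAs are both arms, those sharing a seed, those ranked next to miR-21-5p, the 5 nearest in pattern, the hairpins next in arm ratio, and members of the injury list with p under 0.05. The members and lists were chosen with earlier results of these data known. RefSeq sequences matched 520 of 574 heart and 327 of 367 exosome miRNAs, and no positions are printed because their build (GRCr8) is not that of the study. Intervals and floors of 3 reads cover counting error only, since reads without molecular identifiers are not independent molecules.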

Additional observations from a re-analysis of the deposited data

Results flagged for a closer look

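The difference of log2 folds of miR-21-5p between heart and the exosome table, 1.94 (SE 0.50, limma, adjusted p 0.0464), passed the test of the difference itself. It did not pass in 10 of the 12 fits that left out 1 library, such as that without heart M library 2 (adjusted p 0.0654). In heart the log2 difference of M and CK was 2.44, and in the exosome table it was 0.49. Heart tissue and serum differ in tissue, depth and the number of miRNAs listed, and their part in the difference was not tested. The test took all libraries as independent, and whether heart and serum samples came from the same rats is not stated.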

How the results depend on the processing

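Of the recomputed values, 79 were labelled as kept, 4 became called, 10 lost the call and 20 moved. A tested value was kept when it stayed on its side of the threshold. An untested level, share or ratio was kept when it moved by less than 1 SD between libraries. Counts of called miRNAs have no such SD, and how they were sorted is not given here. No difference of M and CK changed sign, but the arm ratio of heart CK, whose SD is wide, fell below that of M without CK library 2. For heart miR-21-5p limma gave 2.44 on the log2 scale, called over all miRNAs (adjusted p 0.0357) and over those with a mean of at least 10 (adjusted p 0.0316). Adjusting the authors' p over fewer miRNAs gave 0.0945 and 0.0959, still not called. Without each library in turn, with size factors and dispersion trend kept, its log2 fold ran from 2.01 to 2.80, and that of exosome miR-21-5p from 0.37 to 0.59. The log2 fold of heart miR-21-3p ran from 0.53 to 2.66 and was 0.40 with a pseudocount of 10. That of exosome miR-21-3p ran from -5.85 to -4.68 against the floor and was -2.59 with that pseudocount, and without CK library 1 it had no value. Shares without the 5 most abundant miRNAs were 10.3% in heart M, 2.29% in heart CK, 4.39% in exosome M and 3.46% in exosome CK. The arm ratio per 100000 ran from 2.45 to 2.61 in heart M, from 2.22 to 12.1 in heart CK and from 0 to 185 in exosome CK. Heart miRNAs called, 4 by the authors' test, numbered 2 with adjustment over means of at least 100, 0 at an adjusted p under 0.01, and 0 to 5 without 1 library. At an unadjusted p under 0.05 they numbered 44, and limma called 6. Exosome miRNAs called, 14, numbered 1 at 0.01, 22 at 0.1, 24 and 25 in limma and 1 to 12 without 1 library. The heart minus exosome difference, 1.56 to 2.28, lost its call without 10 of 12 libraries. The causes were not tested. No paired analysis was possible because the columns carry no replicate numbers. miR-21-3p had 38 heart reads in all, and what difference they could show was not tested.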
